A study of Rattus norvegicus with 14 samples.

Results

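Mitochondria in a cell join and divide continually, and the balance between these processes sets the shape of the mitochondrial network. The genes described here encode the core machinery of both, and they were chosen by name, 10 genes in all. Mfn1 and Mfn2 encode the mitofusins, GTPases that join outer membranes, and Opa1 encodes the GTPase that joins inner membranes and holds the cristae in shape. Oma1 and Yme1l1 encode inner membrane proteases that cut OPA1 into its short forms. Dnm1l encodes DRP1, the GTPase that constricts mitochondria during fission, and Fis1, Mff and Mief1 encode outer membrane proteins that bind it or help to recruit it. Pink1 encodes a kinase that builds up on damaged mitochondria and marks them for removal. In neurons and astrocytes, as in other cells, much of the control over this machinery lies in cleavage, phosphorylation and location of the proteins, which RNA counts do not measure. The question for these data was whether allopregnanolone (Allo), a neurosteroid made from progesterone, changed the RNA of these genes in cultured hippocampal cells.

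All cultures came from hippocampi of Sprague Dawley rat embryos at embryonic day 18 and were kept in AM medium, a supplement-reduced or serum-stripped medium that serves as a model of aging. Neurons were treated at day 10 in culture, after 4 h in AM medium, for 16 h, either with 0.001% ethanol as vehicle (AM-Veh) or with Allo at 100 nM (AM-Allo), with 4 libraries in each group. Astrocytes spent 24 h in AM medium and a further 24 h with vehicle or 100 nM Allo, with 3 libraries in each group. Nothing in the labels says that replicates were separate cultures from separate litters, so p-values measure the spread between these libraries, which may be partly technical. The values are the authors' normalized counts, that is, estimated reads per gene divided by normalization factors, and there were 18239 rows for the neuron cultures and 31791 for the astrocyte cultures. All 10 genes were listed in both tables and all 10 passed the minimum mean of 10 normalized counts, as did 15312 and 15378 genes in all. Judged from the step between its lowest values, a library held about 19700000 to 24900000 reads on genes in neurons and 22100000 to 28500000 in astrocytes. Gene symbols stand for gene identifiers here, because the tables give no others.

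The neuron cultures also carried RNA of astrocytes. Markers of neurons (Map2, Tubb3, Syt1, Syn1 and Rbfox3) summed to 39288 to 46631 normalized counts per neuron library, and the 6 astrocyte markers (among them Gfap, Slc1a3 and Aqp4) summed to 186074 to 246612. Microglial markers summed to only 23.9 to 43.2 normalized counts in neuron cultures. In astrocyte cultures the astrocyte markers summed to 220285 to 234260, the neuron markers, mostly Map2, to 3565 to 4338, and the mesenchymal markers, mostly collagen genes, to 56593 to 67855. The levels below therefore belong to cultures, and in such bulk samples fewer cells of a type cannot be told apart from less RNA per cell.

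The positions of the 10 genes in the rat assembly GRCr8 come from RefSeq, and this may not be the build that the authors used. RefSeq gave the bases before an annotated start for 9 of the 10 genes, and the entry for Mfn2 is missing. The 250 bases before each start were searched on both strands for the core of the NRF1 site, written GCGCA, any base, then GCGC (NRF1 is a factor that drives nuclear genes of mitochondria), and for TGACGTCA, the full cyclic AMP response element bound by CREB. Both factors belong to pathways that the study measured, but the choice to look for them was made after the sequences had been seen. The NRF1 letters stood before Opa1 and Pink1, against 3.75% of all 33469 promoters of that length, and the cyclic AMP response element stood before Mief1 alone, against 1.59%. A match of letters is not evidence of binding. For Dnm1l, Fis1, Mfn1, Oma1, Opa1 and Yme1l1 the bases searched overlapped the gene's annotated span. An absent match therefore concerns only the bases searched. The stretches around all matches are shown, with the match in capitals and each strand read as the gene is. A link between these letters and the response to Allo was not tested.
Opa1, chr11:84690015-84690044, minus strand: acaggctctaGCGCACGCGCacgttatccg
Pink1, chr5:155825991-155826020, minus strand: accgccccctGCGCTTGCGCataggcaccg
Mief1, chr7:113666806-113666835, plus strand: gaggggctggaTGACGTCActcaggaggag
The last base of the Opa1 match, 125 bases before the start used, is also the first base of the gene's annotated span (84690025). The Pink1 match began 60 bases before the start, and the Mief1 match began 101 bases before it.

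In neurons, none of the 10 genes passed the test in the fit without a block, and 1 or 2 did, at an unadjusted p alone, once the replicate numbers were used as a block. At an unadjusted p under 0.05 by limma, 0 of 10 were called, against a background of 5.69% of all genes tested (872 of 15312), and after Benjamini-Hochberg adjustment 0 of 10 against 0.0261%. With a block by the first part of the number 1 of 10 passed, Pink1, where 11.0% of all genes did, and with a block by the whole number 2 of 10, Pink1 and Mff, where 10.7% did, so these counts are near the background, and 0 of 10 passed adjustment in either. The values of AM-Allo and AM-Veh libraries overlapped for all 10 genes, where 3.95% of all genes tested did not overlap (1.89% with AM-Allo below and 2.06% above). The log2 fold changes ran from -0.03 for Mfn1 to 0.39 for Mff, 9 of the 10 lay within 0.1 of no change, and 5 were above 0 and 5 below. Their median was 0.0017, and that of all genes tested was -0.0015.

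**Figure D1:**
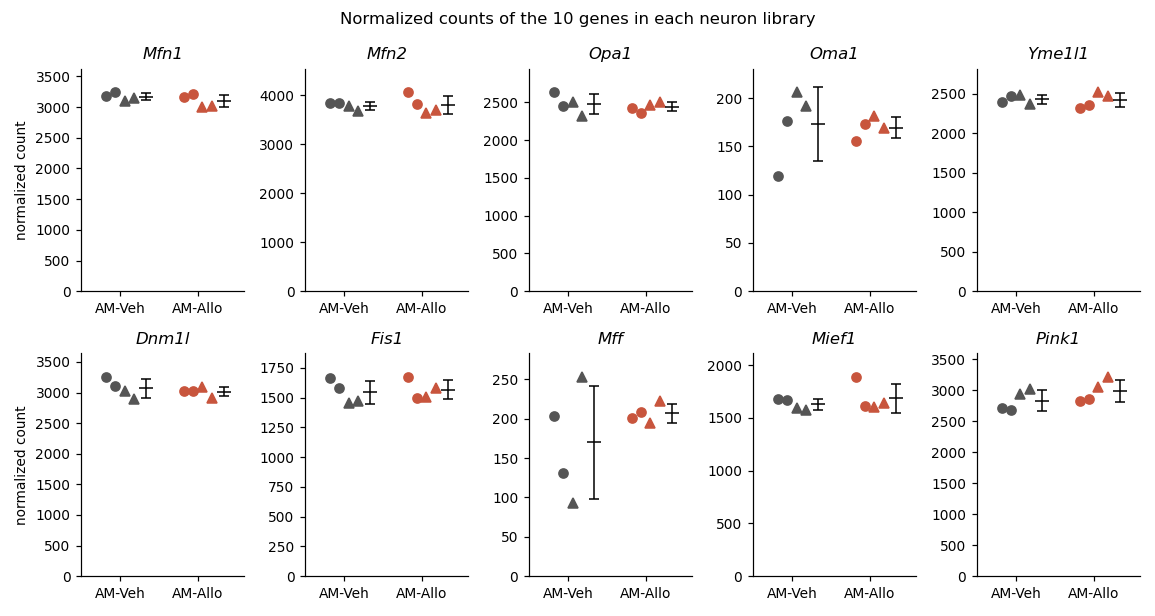
Normalized counts (vertical axes, each from 0) of the 10 genes in each of the 4 AM-Veh and 4 AM-Allo neuron libraries, with circles for replicates numbered 1-1 and 1-2, triangles for 2-1 and 2-2, and the bar giving mean ± SD. The groups overlap in every panel, Mff spans 92.7 to 253 in AM-Veh, and Pink1 is higher in triangles than in circles within each group.

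Of the fusion genes, Mfn1 had 3181, 3239, 3096 and 3156 normalized counts in AM-Veh replicates 1-1, 1-2, 2-1 and 2-2, and 3167, 3206, 3004 and 3026 in the AM-Allo replicates of the same numbers. The lowest values were those of AM-Allo 2-1 and 2-2, the highest that of AM-Veh 1-2, and the AM-Allo library was the lower one in all 4 same-numbered pairs, with an unadjusted limma p of 0.36 without a block, 0.244 with the first-part block and 0.276 with the whole-number block. How many of all genes moved the same way in all 4 pairs was not counted. Mfn2 stood at 3785 ± 79.7 (SD, n = 4) in AM-Veh and 3806 ± 184 in AM-Allo. Opa1 had 2631, 2455, 2504 and 2322 in AM-Veh and 2431, 2363, 2464 and 2509 in AM-Allo, so that AM-Veh held both the highest and the lowest library. Its change was -1.37%, with a 95% confidence interval from -7.41% to 5.06% (log2 fold change -0.02, SE 0.04). For Mfn1 the interval ran from -6.97% to 2.91% and for Mfn2 from -5.22% to 6.53%.

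The genes of the OPA1 proteases were not called either. Yme1l1 stood at 2429 ± 56.8 in AM-Veh and 2415 ± 90.1 in AM-Allo (SD, n = 4). Oma1 had 119, 176, 206 and 191 normalized counts in AM-Veh and 155, 173, 181 and 169 in AM-Allo. Its low value in AM-Veh 1-1 widened the spread, and the interval of its change ran from -21.3% to 26.4%. The residual SD of Oma1, 0.26 (log2), was larger than that of 86.3% of the genes within 2-fold of its level.

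Among the fission genes, Dnm1l had 3249, 3100, 3028 and 2891 normalized counts in AM-Veh and 3020, 3034, 3088 and 2919 in AM-Allo. The AM-Allo values lay inside the AM-Veh range, and the change was -1.63% with an interval from -7.38% to 4.47%. Fis1 stood at 1544 ± 100 in AM-Veh against 1565 ± 79.4 in AM-Allo, while Mief1 stood at 1629 ± 52.8 and 1685 ± 134 (SD, n = 4). One library set the Mief1 spread: AM-Allo 1-1 had 1885, and the other AM-Allo libraries 1602 to 1639. Without it the log2 fold change of Mief1 was -0.01 instead of 0.05.

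Mff was the gene with the largest value of change and also the least steady one. It had 203, 132, 92.7 and 253 normalized counts in AM-Veh 1-1, 1-2, 2-1 and 2-2, and 202, 209, 195 and 223 in AM-Allo. AM-Veh held both the lowest and the highest libraries, and the AM-Allo values lay between them. The log2 fold change was 0.39 (SE 0.25) with a limma p of 0.16, and the residual SD of Mff was larger than that of 97.8% of genes within 2-fold of its level. With the whole replicate number as a block the unadjusted p was 0.0363 (adjusted p 0.425), and with the first part of the number 0.104. Without AM-Veh 2-2 the log2 fold change was 0.61 (unadjusted limma p 0.0191), and without AM-Veh 2-1 it was 0.13 (p 0.506), so these libraries decided the value.

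Pink1 had 2711, 2681, 2938 and 3017 normalized counts in AM-Veh 1-1, 1-2, 2-1 and 2-2, and 2833, 2868, 3063 and 3212 in AM-Allo. Each AM-Allo library was higher than the AM-Veh library of the same number, but libraries of the second set (2-1 and 2-2) were higher than those of the first in both groups, and the groups overlapped. The share of all genes with such a pattern in same-numbered pairs was not counted, here or for the markers below. The log2 fold change was 0.08 (SE 0.05), 5.54% with an interval from -2.6% to 14.3%, and a limma p of 0.166 without a block. Leaving out 1 library moved this value between 0.04 (unadjusted p 0.417, without AM-Allo 2-2) and 0.11 (p 0.0704, without AM-Veh 2-2), and without AM-Veh 1-2 it was 0.05. With a block by the first part of the replicate number, the unadjusted p for Pink1 was 0.0125 and the adjusted p was 0.29. With a block by the whole number these were 0.0154 and 0.329. On the authors' VST values without a block they were 0.00469 and 0.135, in a table where 14.4% of all genes passed at an unadjusted p and from which the difference between sets described below is absent. Marker levels stood beside this as follows. The summed neuron markers spanned 39288 to 42859 in AM-Veh and overlapped with the 41780 to 46631 of the AM-Allo libraries. These sums were higher with Allo in all 4 same-numbered pairs. Of the 5 neuron markers, Tubb3 and Map2 were called higher at an unadjusted p, where 3.21% of all genes were. Syn1 had a value above 0, and Syt1 (4088 to 3901 on average) and Rbfox3 (470 to 450) had values below 0. The summed oligodendrocyte lineage markers spanned 21825 to 25061 without Allo and 22887 to 27299 with it, higher with Allo in all 4 same-numbered pairs, with none of the 6 markers called. The summed astrocyte markers spanned 187303 to 246612 without Allo and 186074 to 239119 with it. They were lower with Allo in all 4 same-numbered pairs, again with none of the 6 markers called. These marker calls come from the fit without a block, whereas Pink1 was called only with a block or on VST values. The part of these cells in the Pink1 values was not tested.

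**Figure D2:**
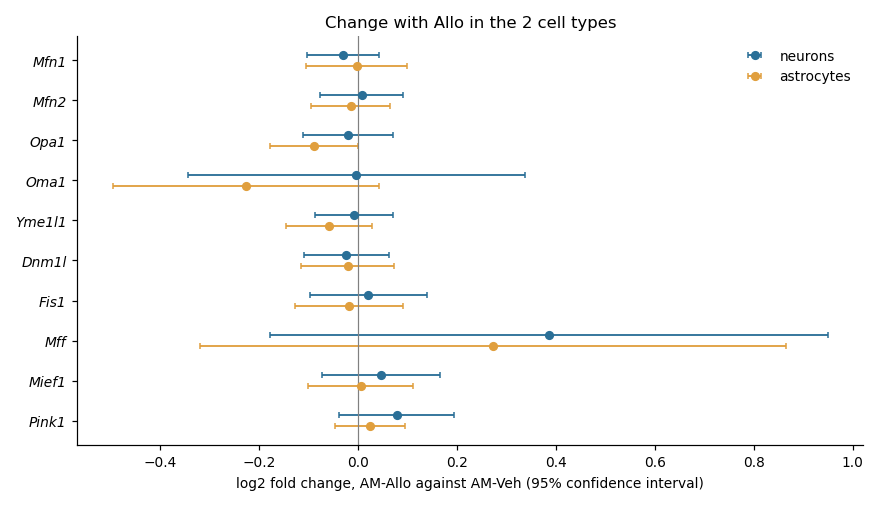
Log2 fold change of AM-Allo against AM-Veh (horizontal axis) for each of the 10 genes in neurons and in astrocytes, with points for the limma estimate without a block and bars for its 95% confidence interval. The interval of Opa1 in astrocytes ends just below 0, all other intervals include 0, and those of Mff and Oma1 are the widest. Blocked fits of neurons, not drawn, gave an unadjusted limma p under 0.05 for Pink1 (0.0125 by first part, 0.0154 by whole number) and Mff (0.0363 by whole number).

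The replicate numbers of the neuron libraries have a first part, 1 or 2, which is called a set here because the labels do not say what it stands for. Between the sets, with treatment in the model, 29.3% of all genes (4490 of 15312) differed at an unadjusted p under 0.05, and 17.2% after adjustment. Of the 10 genes, 6 differed at an unadjusted p under 0.05. Mfn1, Mfn2, Fis1 and Mief1 were lower in the second set by 0.06 to 0.09 on the log2 scale, and Oma1 and Pink1 were higher by 0.27 and 0.14. Only Pink1, at 2773 in the first set and 3058 in the second, passed adjustment (limma adjusted p 0.00207), 1 of 10 genes. The summed astrocyte markers were 186074 to 198106 in the first set and 224426 to 246612 in the second, without overlap. The oligodendrocyte lineage markers ran the other way, 24612 to 27299 in the first set and 21825 to 22971 in the second, as did the mesenchymal markers, at 646 to 2206 and 226 to 348, also without overlap. The part of these cells in the difference between sets was not tested. For Pink1 this difference between sets was larger than the one between treatments within either set, which was 0.08 in the first and 0.07 in the second (log2).

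In astrocytes, 1 of the 10 genes, Opa1, was lower with Allo at an unadjusted p, and no gene passed adjustment. The background was 7.01% of all genes at an unadjusted p under 0.05 (1078 of 15378), 3.29% when only lower genes are counted, and 0.0065% after adjustment, so 1 gene of 10 is near the number that the background gives. The log2 fold changes ran from -0.23 for Oma1 to 0.27 for Mff, with 8 of 10 within 0.1 of no change, 3 above 0 and 7 below. Their median was -0.02, and that of all genes tested was 0.0014.

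**Figure D3:**
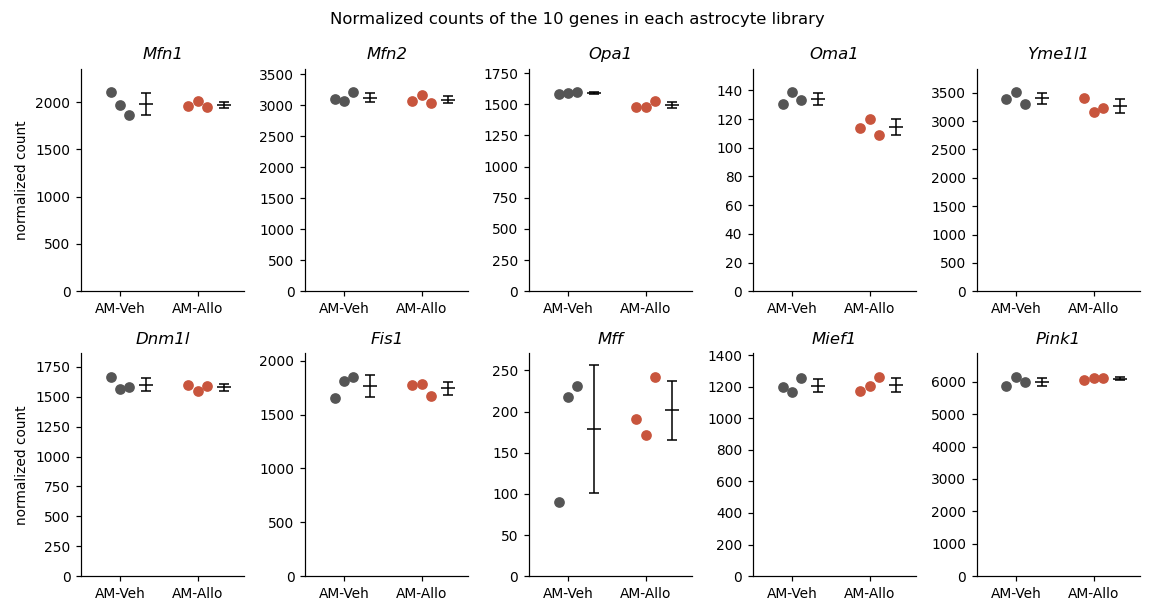
Normalized counts (vertical axes, each from 0) of the 10 genes in each of the 3 AM-Veh and 3 AM-Allo astrocyte libraries, with the bar giving mean ± SD. For Opa1 and Oma1 the AM-Allo points all lie below the AM-Veh points, and the other 8 genes overlap.

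Opa1 had 1580, 1593 and 1594 normalized counts in the AM-Veh astrocytes and 1476, 1479 and 1526 in the AM-Allo astrocytes. All AM-Allo libraries lay below all AM-Veh libraries, as they did for 6.07% of all genes tested. The mean fell from 1589 ± 7.74 to 1493 ± 27.8 (SD, n = 3), a log2 fold change of -0.09 (SE 0.04) or -6.03%, with an interval from -11.6% to -0.0786%. The limma p was 0.0475 and the adjusted p 0.709, and the two-sided exact permutation p was 0.1, the smallest that 3 libraries against 3 allow. Leaving out any 1 library except AM-Allo 3 took the p above 0.05 (0.0735 to 0.119), while without AM-Allo 3 it was 0.0367. The spread of Opa1 was small for its level, a residual SD of 0.02 (log2), and 1.71% of the genes within 2-fold of its level had a smaller one. Markers that moved in the same libraries at an unadjusted p, all lower with Allo, were 1 of 4 tested neuron markers (Map2, 3873 to 3551 on average), 1 of 6 astrocyte markers (S100b, log2 fold change -0.09) and 1 of 6 microglial markers (Cx3cr1, -0.58), where 3.29% of all genes were called lower. Other tested markers of these lists had higher means with Allo: Syn1 (215 to 237), Aldh1l1 (373 to 379), Tmem119 (226 to 251) and P2ry12 (16.8 to 20.4). The rest had lower means. The summed neuron markers spanned 3933 to 4338 in AM-Veh and 3565 to 3981 in AM-Allo, the astrocyte markers 221113 to 234260 and 220285 to 225182, and the microglial markers 895 to 1132 and 828 to 1055, and their part in the Opa1 values was not tested.

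The protease genes had lower values with Allo but were not called. Oma1 had 130, 139 and 133 normalized counts in AM-Veh and 114, 120 and 109 in AM-Allo, again with all AM-Allo libraries below. Its log2 fold change was -0.23 (SE 0.12), -14.6% with an interval from -29.1% to 2.9%, at a limma p of 0.0906 and an adjusted p of 0.77. Oma1 varied less than all but 2.85% of the genes within 2-fold of its level. In limma without the trend of spread on level its unadjusted p was 0.0064, and in that fit Opa1 was no longer called (p 0.0597). Yme1l1 had 3399, 3506 and 3305 in AM-Veh and 3408, 3167 and 3226 in AM-Allo, which overlap, with a log2 fold change of -0.06 (SE 0.04). Of the 10 genes, 2 did not overlap between the groups, where 12.5% of all genes tested did not (6.07% below and 6.42% above).

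The mitofusin and fission genes of astrocytes stayed close between groups. Mfn1 stood at 1980 ± 120 in AM-Veh against 1974 ± 30.5 in AM-Allo, while Mfn2 stood at 3123 ± 73.3 and 3090 ± 60.6 (SD, n = 3). Dnm1l had 1662, 1566 and 1577 normalized counts in AM-Veh and 1600, 1546 and 1587 in AM-Allo, with an interval from -7.65% to 5.1%. Fis1 stood at 1768 ± 104 and 1744 ± 61.9, and Mief1 at 1206 ± 42.9 and 1211 ± 44.5. Pink1 stood at 6000 ± 130 in AM-Veh against 6100.0 ± 37.8 in AM-Allo, and its interval of -3.22% to 6.81% was among the narrowest.

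Mff was uneven in astrocytes as well. It had 89.6, 217 and 231 normalized counts in AM-Veh and 192, 172 and 242 in AM-Allo, so that AM-Veh 1 was the lowest library by far and the rest overlapped. The log2 fold change was 0.27 (SE 0.27, limma p 0.338), and without AM-Veh 1 it was -0.16. Its residual SD was larger than that of 99.5% of genes within 2-fold of its level.

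A difference in the response to Allo between neurons and astrocytes was not detected for any of the 10 genes. The difference of the log2 fold changes was tested by limma over all 14 libraries, in which 6.76% of 14384 genes passed at an unadjusted p under 0.05 (973) and 0.0% after adjustment. Of the 10 genes, 0 passed at either threshold, and Opa1 had the lowest unadjusted p of them (0.227, a difference of 0.07, SE 0.06, neurons minus astrocytes). For Oma1 the difference was 0.22 with an SE of 0.21, and for Mff 0.11 with an SE of 0.45, so differences of considerable size could not be detected for Oma1 or Mff. Both kinds of culture carried much astrocyte marker RNA, so the contrast is between cultures and not between pure cell types. Each cell type has its own normalization, and levels in the 2 are therefore set side by side without a test.

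As a share of all normalized counts of an AM-Veh library, in parts per 1000000, Dnm1l was 138 ± 7.78 in neuron cultures and 67.1 ± 2.43 in astrocyte cultures, a ratio of 2.06. Opa1 was 112 ± 6.38 and 66.6 ± 0.206, and Mfn1 was 143 ± 3.78 and 82.9 ± 5.21, so both were also higher in neuron cultures, by 1.68 and 1.72 times. Pink1 ran the other way, at 128 ± 6.41 parts in neuron cultures and 251 ± 4.46 in astrocyte cultures, 1.96 times higher in the latter. Yme1l1 was 1.3 times higher in astrocyte cultures, and Mfn2, Oma1 and Mief1 were 1.31, 1.39 and 1.46 times higher in neuron cultures. The ranges of the AM-Veh libraries of the cell types did not overlap for 7 of the 10 genes (Dnm1l, Opa1, Mfn1, Mfn2, Mief1, Yme1l1 and Pink1), where 79.1% of the 14384 genes tested in both did not, so such a separation was the rule among all genes. They overlapped for Fis1, at 69.7 ± 5.09 and 74.0 ± 4.17, for Mff, at 7.68 ± 3.21 and 7.5 ± 3.25, and for Oma1, whose 3 astrocyte libraries lay at the lower end of the neuron range. Genes were not ranked against each other, because counts depend on transcript length and no lengths were used.

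The relation of fission to fusion messages was followed as the ratio of Dnm1l to Opa1 counts within a library. Its absolute value depends on the lengths of both transcripts, and only its change was read. In neurons the ratio was 1.24, 1.26, 1.21 and 1.24 in AM-Veh 1-1, 1-2, 2-1 and 2-2, and 1.24, 1.28, 1.25 and 1.16 in AM-Allo. The means were 1.24 ± 0.0224 and 1.24 ± 0.0512 (SD, n = 4), with AM-Allo holding both the highest and the lowest library. The change was -0.261%, with a two-sided exact permutation p of 0.886, where the smallest possible is 0.0286. This permutation took no account of replicate numbers. Among same-numbered libraries, the ratio was lower with Allo only for 2-2. In astrocytes the ratio was 1.05, 0.983 and 0.989 in AM-Veh and 1.08, 1.05 and 1.04 in AM-Allo, with means of 1.01 ± 0.0378 and 1.06 ± 0.0236 (SD, n = 3). AM-Veh 1 lay among the AM-Allo libraries, and the exact permutation p for the rise of 4.84% was 0.3, in a design that cannot go below 0.1.

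**Figure D4:**
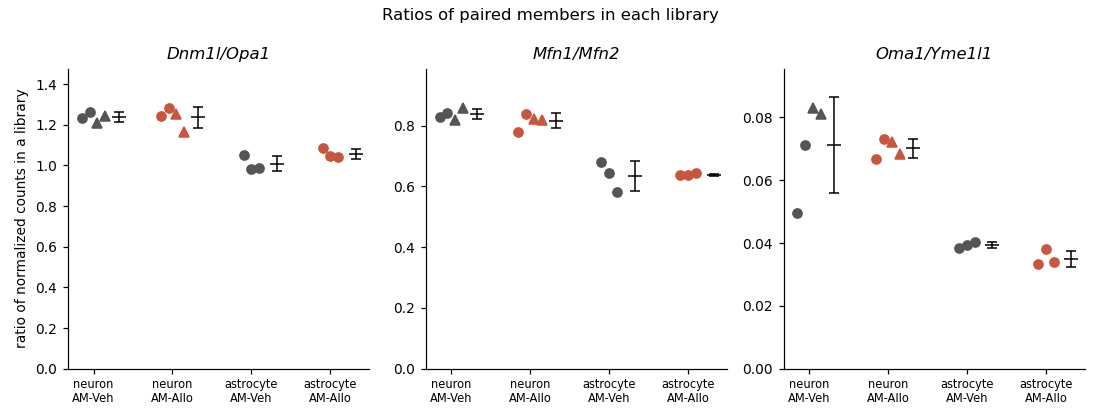
Ratio of normalized counts of Dnm1l to Opa1, Mfn1 to Mfn2 and Oma1 to Yme1l1 (vertical axes, from 0) in each neuron and astrocyte library, with circles and triangles for the neuron replicates numbered 1-1 and 1-2 or 2-1 and 2-2, circles for all astrocyte libraries, and bars for mean ± SD. Treatment groups overlap except for Oma1 to Yme1l1 in astrocytes, where AM-Allo reaches 0.038 and AM-Veh begins at 0.0384.

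The ratio of Mfn1 to Mfn2 was 0.837 ± 0.0169 in AM-Veh neurons and 0.815 ± 0.0248 in AM-Allo neurons, and 0.634 ± 0.0495 and 0.639 ± 0.00328 in astrocytes. The ratio of Oma1 to Yme1l1, the OPA1 proteases, was 0.0712 ± 0.0153 and 0.0701 ± 0.00301 in neurons. In astrocytes it was 0.0384, 0.0395 and 0.0402 in AM-Veh and 0.0333, 0.038 and 0.0339 in AM-Allo, which do not overlap by a narrow margin. These ratios are given as values, without a test.

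Other genes of mitochondrial dynamics were taken from a list of 42, in groups by role, of which 37 were listed in each table and 36 were tested in each cell type. In neurons 1 of 36 was higher at an unadjusted p under 0.05 and 0 were lower, against 3.21% and 2.48% of all genes. In astrocytes 2 were higher and 0 lower, against 3.72% and 3.29%. None passed adjustment in these fits. On the authors' VST values of neurons without a block, 5 of 36 passed at an unadjusted p, against 14.4% of all genes. Of these 1, Usp30, passed adjustment (limma adjusted p 0.0485). With the first-part block on the same values, the adjusted p of Usp30 was 0.0931 and 0 of 36 passed adjustment. The median log2 fold change of the list was 0.0050 in neurons and -0.00016 in astrocytes, beside -0.0015 and 0.0014 for all genes.

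**Figure D5:**
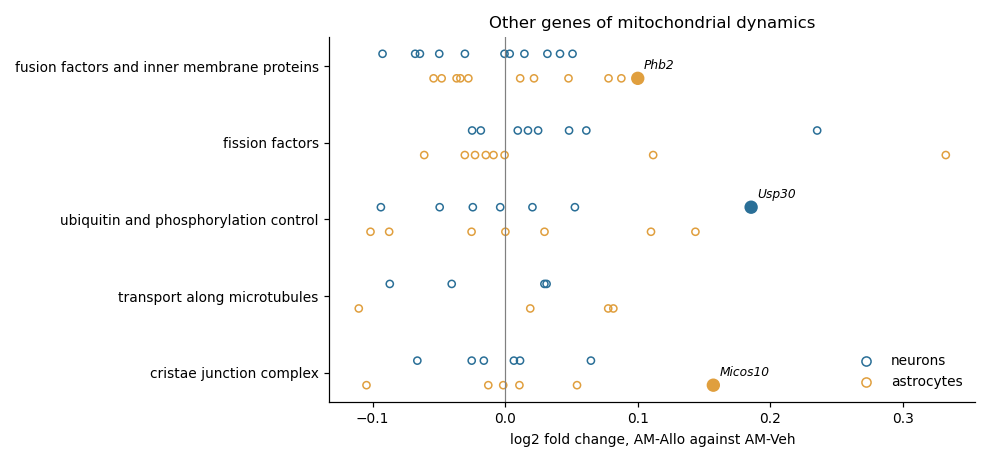
Log2 fold change of AM-Allo against AM-Veh (horizontal axis) for the 36 tested genes of the wider list, by role, in neurons and astrocytes. Large filled points are genes with an unadjusted p under 0.05, which were Usp30 in neurons and Phb2 and Micos10 in astrocytes.

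Usp30, which encodes a mitochondrial deubiquitinase that opposes parkin, the partner of PINK1, was the neuron gene. It had 831, 889, 818 and 893 normalized counts in AM-Veh and 985, 933, 967 and 1018 in AM-Allo, all of them higher, as they were for 2.06% of all genes. The log2 fold change was 0.19 (SE 0.05) with a limma p of 0.00243 and an adjusted p of 0.497, and with a block by the first part of the number the adjusted p was 0.0924. In astrocytes Usp30 stood at 950 ± 43.6 and 933 ± 22.3 (SD, n = 3).

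Phb2 encodes a prohibitin of the inner membrane that takes part in OPA1 processing. In the astrocytes it had 1929, 1965 and 2003 normalized counts in AM-Veh and 2099, 2099 and 2122 in AM-Allo. All AM-Allo values of Phb2 were higher, as they were for 6.42% of all genes. Its log2 fold change was 0.10 (SE 0.04, limma p 0.0216, adjusted p 0.655), and without AM-Veh 1 or AM-Veh 2 the p was 0.0707 or 0.0521. In neurons it stood at 2666 ± 174 in AM-Veh and 2550 ± 169 in AM-Allo, a log2 fold change of -0.06, which was not called without a block (unadjusted p 0.287) but was called lower with one (0.0274 by first part and 0.0423 by whole number) and on the VST values (0.00847). Micos10, listed as Minos1, a subunit of the complex at cristae junctions, had 882, 854 and 851 in AM-Veh astrocytes and 950, 990 and 945 in AM-Allo astrocytes. Its log2 fold change was 0.16 (SE 0.05, limma p 0.00782, adjusted p 0.524). In neurons the same gene stood at 1767 ± 90.5 and 1686 ± 49.9 (SD, n = 4).

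Where no gene of a role was called, the one with the largest value of change is given. In neurons these were Opa3, the gene of a mitochondrial membrane protein (-0.09), Mtfr1, a fission regulator (0.24), Rhot2, which encodes an outer membrane GTPase of mitochondrial transport (-0.09), and Micos10 (-0.07), all log2 fold changes. In astrocytes these were Gdap1, which encodes an outer membrane protein tied to fission (0.33), Mul1, a ubiquitin ligase gene (0.14), and Rhot2 (-0.11). With a block by the first part of the number, Afg3l1, a gene of an inner membrane protease, was also called lower in neurons (log2 fold change -0.07, unadjusted p 0.0416). With that block 3 of the 36 genes of the list were called in neurons, where 11.0% of all genes were. With the whole number 2 of 36 were called, where 10.7% of all genes were.

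Over the 8 neuron libraries, the genes whose log2 values followed Dnm1l most closely among 11779 genes with a mean of at least 100 were Gdpd5 (Pearson r 0.954), Yipf5 (0.949) and Pick1 (0.949). For Opa1 they were Pi4ka (0.954), Nefm (0.947) and Gnpnat1 (0.945). These values describe 8 points that share treatment and set, and were picked as the highest of many.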

How the data were processed

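Poly(A) RNA from hippocampal neuron and astrocyte cultures was sequenced as stranded paired ends. The authors estimated transcript abundance with Salmon 0.14 against rat transcripts of Ensembl release 95, collapsed it to genes and used DESeq2 1.18.1 for normalization. The normalized signal per gene that the authors deposited was used, and their variance-stabilized (VST) values, close to a log2 scale, served as an alternative. The genome build is not named in the sources used here. The lowest values did not resolve into whole reads throughout: 69.7% to 95.0% of values under 6 were whole multiples of a library's step (within 0.15 of a step), so count models were not run and the depths given are estimates.

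A pseudocount of 1 was added before the log2, and genes averaging at least 10 normalized counts were tested with limma 3.58.1 (eBayes with trend, R 4.3.3) in each cell type alone, and p-values were adjusted by Benjamini-Hochberg over all genes tested. Rows sharing a symbol were left out (2 in neurons, 4 in astrocytes), and 0 columns of samples were unused. Single ratios had two-sided exact permutation tests without a block. The test was tried on simulated data first. Transcript lengths were not used here, so the planned per-length order of genes was not made.

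Same-numbered AM-Veh and AM-Allo neuron libraries deviated together (r 0.229 to 0.296 over genes). Those sharing only the first part did so too (0.185 to 0.236), and these ranges overlap. For the others r was -0.319 to -0.15. Deviations were taken from group means over both sets, so a difference between sets alone gives this contrast. The values thus show a shared set, and pairing by the whole number is less clear. The numbers were still taken as pairs, and blocked fits stand beside results they change. All confidence intervals given are those of the fits without a block. The means of the 2 sets were equal within 1e-06 for all 18237 genes in the neuron VST table and for 0 in the normalized counts, so a term for set had been removed from the VST values, a step that no source used here states.

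The 10 members, the wider list and the tests were chosen with earlier results of these data known. All members are named. Of the list, genes with an unadjusted p under 0.05 are named, otherwise the largest change of each role, and for Dnm1l and Opa1 the 3 genes of highest Pearson r.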

Additional observations from a re-analysis of the deposited data

Results flagged for a closer look

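Of the 32 groups of 4 neuron libraries examined (16 genes and ratios in 2 groups each), 1 held a library far from the other 3, and chance gives about 1 in 20. This was Mief1 in AM-Allo 1-1, at 1885 normalized counts against 1602 to 1639 in the other AM-Allo libraries.

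The effect of Allo differed between neurons and astrocytes, by limma's test of that difference at an unadjusted p under 0.05, for the 3 genes of the wider list that had been called in one of the cell types. They were chosen by one side of this same contrast, so this is no independent test, and none passed adjustment. The log2 difference, neurons minus astrocytes, was 0.21 for Usp30 (SE 0.07, unadjusted p 0.00741, adjusted p 0.563), -0.22 for Micos10, listed as Minos1 (SE 0.06, unadjusted p 0.00242, adjusted p 0.448), and -0.16 for Phb2 (SE 0.07, unadjusted p 0.0445, adjusted p 0.721).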

How the results depend on the processing

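As reported, 0 of the 10 genes in neurons and 1 in astrocytes had an unadjusted limma p under 0.05. In neurons this became 1 with the authors' VST values (14.4% of all genes), 1 with the replicate block by first part (11.0%), 2 with the block by whole number (10.7%), and 1 with VST values and the first-part block, a fit chosen after the data were seen, as was the comparison of sets. In astrocytes it became 0 with the replicate block by number (Opa1 at p 0.0657), whose numbers do not pair the libraries (r -0.00697 to 0.0241). Leaving out 1 library each time gave 0 to 1 in either cell type, and 0 for the difference between cell types. After adjustment 0 of 10 passed in all settings run. Of the wider list in neurons, 2 of 36 genes had an unadjusted p under 0.05 with the block by whole number and 0 passed adjustment there. With VST values and no block 1, Usp30, passed adjustment, and with the first-part block on those values 0 did. The block raised the number of all genes called in neurons after adjustment from 4 to 93 by whole number and 104 by first part, VST values gave 158 without and 105 with the first-part block, and the fit without a variance trend gave 0. In astrocytes this number, 1 as reported, was 17 with the block, 0 with a minimum of 50, 0 without the trend, and 1 to 72 when 1 library was left out.

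Directions near 0 turned over. The log2 fold change of Mfn2 in neurons became -0.00020 under quantile normalization, and that of Mief1 in astrocytes -0.0038 under quantile normalization and -0.0017 under upper-quartile scaling. With 1 neuron library left out, log2 fold changes ran from -0.024 to 0.027 for Mfn2, -0.051 to 0.0093 for Opa1, -0.17 to 0.089 for Oma1, -0.028 to 0.010 for Yme1l1, -0.052 to 0.0044 for Dnm1l, -0.012 to 0.059 for Fis1 and -0.0085 to 0.070 for Mief1, and stayed above 0 for Pink1, from 0.043 to 0.11. With 1 astrocyte library left out they ran from -0.045 to 0.042 for Mfn1, -0.031 to 0.0035 for Mfn2, -0.037 to 0.0052 for Dnm1l, -0.068 to 0.013 for Fis1, -0.16 to 0.51 for Mff and -0.023 to 0.033 for Mief1. The log2 difference of the Dnm1l to Opa1 ratio ran from -0.022 to 0.025 in neurons and from 0.050 to 0.099 in astrocytes. The causes were not tested.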
